A study of Rattus norvegicus with 30 samples.

Results

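The 6 transcription factors of the steroid-producing gonad studied here were followed in rat testes and in cultured pieces of prepubertal rat testis. They are Nr5a1, Nr4a1, Nr0b1, Gata4, Gata6 and Nr3c1, found by their Entrez Gene identifiers among the 17322 genes of the expression file, which holds all 6 of 6. The 6 factors were set by name, with earlier results of these data known.

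Testes of Wistar Han rats were sampled in vivo at 6 ages, counted in days postpartum (dpp): 8.5 and 14.5 dpp, then 24.5 dpp and 30.5 dpp, and last 36.5 dpp and 53.5 dpp. Fragments of 8.5 dpp testes were cultured at 34 °C on agarose gels at the border of gas and liquid for 6 days (D6), 16 days (D16), 22 days (D22) or 28 days (D28). The medium held αMEM, knock-out serum replacement, retinol and vitamin E, and no gonadotropin is named among its supplements. The labels name no genetic change in any group. Each in vivo library came from another testis. Each cultured library pooled 12 explants from at least 3 males, after the dead centre of the tissue had been cut away, so its spread is that of pools and not of single animals. Each group had 3 libraries except 14.5 dpp, which had 2, because the third sample of that age is labelled an outlier and was left out. Its column is listed at 0 for all genes. The study also excluded 1 testis of 14.5 dpp, as its profile differed from the other 2. Comparisons with 14.5 dpp therefore rest on 2 testes. The explants match testes of 14.5 dpp in age at D6, of 24.5 dpp at D16, of 30.5 dpp at D22 and of 36.5 dpp at D28.

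In the testis, Leydig cells between the tubules make androgens and Sertoli cells inside the tubules nurse germ cells. Nr5a1 (steroidogenic factor 1) is an orphan nuclear receptor that binds the promoters of the genes for steroid synthesis and of Amh, the hormone of immature Sertoli cells. Nr0b1 (DAX1) has no classical DNA-binding domain and represses Nr5a1. Nr4a1 (NUR77) is an immediate early gene that luteinizing hormone and cyclic AMP switch on in Leydig cells. Gata4 and Gata6 bind GATA motifs and act in Sertoli and Leydig cells, often with the cofactors FOG1 (Zfpm1) and FOG2 (Zfpm2). Nr3c1 is the glucocorticoid receptor, which many cell types of the testis express.

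Values are FPKM, fragments scaled to the length of the transcript and to the depth of the library, so levels of different genes are compared per length. The number of reads behind each value is unknown, since the file holds no counts. Between 12520 and 13563 genes a library had a value above 0. Fold changes are differences of mean log2(FPKM + 1). A gene is said to be called, to rise or to fall where its adjusted p (limma, Benjamini-Hochberg over all genes tested) was at most 0.05 and the ratio of its group medians at least 2. The tissue was checked by markers: 9 of 10 Sertoli markers had values, Gata1 being listed at 0 in every library, and all 6 Leydig markers were present in vivo. One testis of 24.5 dpp (replicate 3) stood apart. Its 6 Leydig markers summed to 66.3 FPKM against 595 and 357 in the other 2 testes of that age. Each of the 6 markers was lowest in it, where 33.2% of all detected genes were. Of the 6 factors 5 were highest in it, where 46.3% of all detected genes were. Fold changes and calls that involve 24.5 dpp are given with and without it.

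The sequences just upstream of 3 of the factors are shown because these 3 part in culture: Nr5a1 overlapped its starting level, Nr0b1 rose and Nr4a1 scattered. They are the 250 bases before one transcription start listed by RefSeq for each gene (build GRCr8, 5′ to 3′ on the strand of the gene). For Nr0b1 this start is the 5′ end of the listed gene. For Nr5a1 it lies 63 bases inside the gene, and for Nr4a1 it lies 12985 bases inside, so longer transcripts of Nr4a1 begin upstream of the window shown. Capitals mark, in Nr5a1, an E-box (CACGTG), the CCAAT box and also a motif of the GATA factors. They mark TGCGTCA, a variant of the cyclic AMP response element, in Nr4a1, and the nuclear receptor core motif AGGTCA and TATAAA in Nr0b1.
Nr5a1, chr3:42896047-42896296, minus strand: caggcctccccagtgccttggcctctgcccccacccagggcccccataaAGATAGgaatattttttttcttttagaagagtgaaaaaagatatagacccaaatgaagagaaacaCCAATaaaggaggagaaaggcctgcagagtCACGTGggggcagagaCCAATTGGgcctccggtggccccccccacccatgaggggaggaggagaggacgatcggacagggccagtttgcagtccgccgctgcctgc
Nr4a1, chr7:134259888-134260137, plus strand: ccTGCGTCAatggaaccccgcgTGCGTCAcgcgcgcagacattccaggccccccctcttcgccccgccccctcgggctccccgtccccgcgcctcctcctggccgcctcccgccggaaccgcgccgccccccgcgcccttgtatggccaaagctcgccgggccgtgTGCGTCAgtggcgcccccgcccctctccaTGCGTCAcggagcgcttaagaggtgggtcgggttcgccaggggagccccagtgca
Nr0b1, chrX:54707408-54707657, plus strand: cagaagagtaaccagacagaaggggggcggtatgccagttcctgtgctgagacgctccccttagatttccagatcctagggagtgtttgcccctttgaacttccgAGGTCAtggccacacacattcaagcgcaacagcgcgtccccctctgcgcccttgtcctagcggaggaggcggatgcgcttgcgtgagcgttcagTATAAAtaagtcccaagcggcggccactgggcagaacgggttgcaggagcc
The motifs were searched on both strands, and those marked were picked after the sequences had been read. TGCGTCA occurs 4 times upstream of Nr4a1, at 248, 228, 84 and 55 bases before the start, and at least once in 1.66% of the 33469 upstream windows of the table. CACGTG occurs in 5.59% of the windows, GATA with A or T before it and A or G after it in 27%, CCAAT in 34%, AGGTCA in 14.1% and TATAAA in 12.9%. In Nr5a1 one CCAAT on each strand share bases. The full site of Nr5a1 itself, CAAGGTCA, was in 1.33% of the windows and in none of these 3. The matches are letters in a window and not measured binding.

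**Figure D1:**
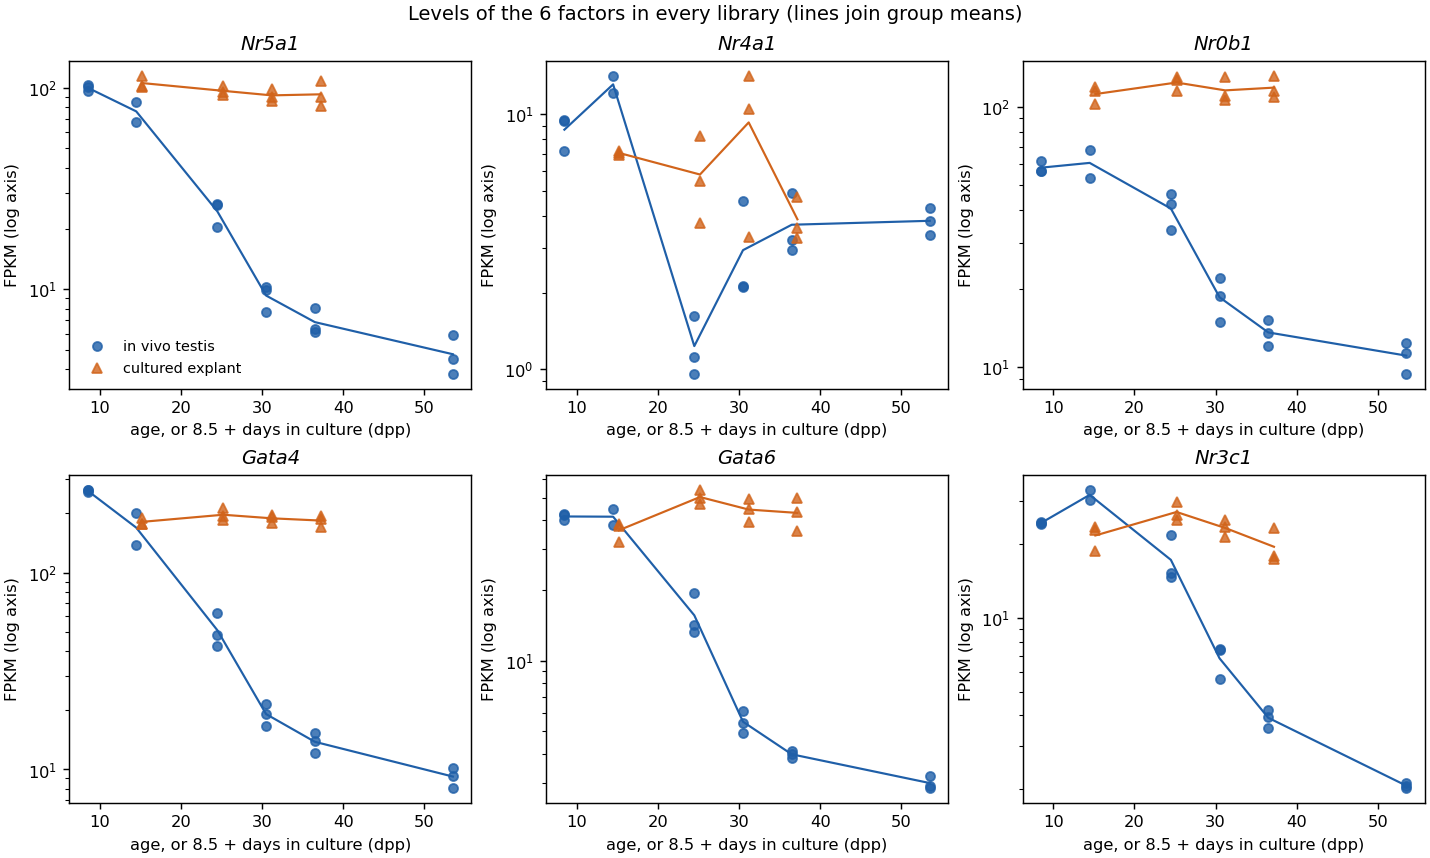
FPKM of each factor in every library on a log axis, against age for the in vivo testes (blue circles) and against 8.5 plus the days in culture for the explants (orange triangles, shifted right by 0.7 days to be seen); lines join group means. Apart from Nr4a1, the in vivo values fall with age while the explants stay near the level of the young testis, and for Nr0b1 every explant lies above every testis.

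All 6 factors changed over the in vivo ages, and each was lower at 53.5 dpp than at 8.5 dpp. The F test over the 6 ages called 6 of 6, also without the 24.5 dpp testis that stood apart, where 90.2% of all genes tested were called. From 8.5 to 53.5 dpp the mean FPKM of Gata4 fell 28.3-fold, of Nr5a1 21.1-fold, of Gata6 13.8-fold, of Nr3c1 11.9-fold, of Nr0b1 5.26-fold and of Nr4a1 2.28-fold. In these bulk samples fewer cells of a type and less RNA per cell cannot be told apart. The germ cell markers rose over the same ages from a sum of 27.7 to 30.5 FPKM at 8.5 dpp to between 11268 and 16818 FPKM at 53.5 dpp, and their part in the fall was not tested.

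Gata4 was the most abundant factor of the young testis. Its FPKM was 262, 262 and 258 at 8.5 dpp, 200 and 138 at 14.5 dpp, 48.3, 42.2 and 62.3 at 24.5 dpp, and 19.2, 16.7 and 21.4 at 30.5 dpp. The values at 36.5 dpp were 15.3, 14.0 and 12.1 FPKM and those at 53.5 dpp 9.32, 8.07 and 10.2 FPKM. No 2 neighbouring ages overlapped. Nr5a1 followed with 101, 103 and 96.5 FPKM at 8.5 dpp and 84.8 and 68.0 FPKM at 14.5 dpp. It then had 26.2, 20.3 and 26.4 FPKM at 24.5 dpp, 10.3, 7.68 and 9.92 FPKM at 30.5 dpp, 8.09, 6.14 and 6.37 FPKM at 36.5 dpp and 4.51, 3.80 and 5.95 FPKM at 53.5 dpp. For Nr5a1 the ages 30.5 and 36.5 dpp overlapped and the other neighbours did not.

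Gata6 was lower than Gata4 but lost its level in the same interval. It stood at 42.4, 42.2 and 39.9 FPKM at 8.5 dpp and 44.6 and 38.2 FPKM at 14.5 dpp, which overlap. By 24.5 dpp it was at 13.3, 14.2 and 19.5 FPKM, and at 53.5 dpp at 3.23, 2.86 and 2.90 FPKM. Nr3c1 began at 24.4, 24.8 and 24.1 FPKM, was higher in both testes of 14.5 dpp (33.4 and 30.4 FPKM), and fell to 15.3, 14.7 and 21.9 FPKM at 24.5 dpp and 2.06, 2.02 and 2.11 FPKM at 53.5 dpp. The step of Nr3c1 from 8.5 to 14.5 dpp was 0.37 ± 0.15 (SE) on the log2 scale and missed the threshold (adjusted p = 0.0638, limma).

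Nr0b1 held its level longest. It had 56.6, 61.6 and 56.6 FPKM at 8.5 dpp, 53.3 and 68.2 FPKM at 14.5 dpp and still 46.0, 42.3 and 33.6 FPKM at 24.5 dpp. Values of 22.0, 14.9 and 18.8 FPKM at 30.5 dpp and 12.4, 9.43 and 11.4 FPKM at 53.5 dpp followed. Nr4a1 took another course. It had 9.40, 9.54 and 7.18 FPKM at 8.5 dpp and 14.1 and 12.1 FPKM at 14.5 dpp, dropped to 1.12, 0.961 and 1.62 FPKM at 24.5 dpp, and was at 4.58, 2.12 and 2.10 FPKM at 30.5 dpp, 4.93, 3.21 and 2.93 FPKM at 36.5 dpp and 3.36, 3.83 and 4.28 FPKM at 53.5 dpp. It is the single factor of the 6 whose lowest age was not 53.5 dpp.

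The calls between neighbouring ages lay in 2 steps. From 14.5 to 24.5 dpp 5 of 6 factors were called lower (21.4% of all genes): Nr4a1 (-2.67 ± 0.24 SE, log2 scale), Gata4 (-1.71 ± 0.18), Nr5a1 (-1.61 ± 0.18), Gata6 (-1.36 ± 0.14) and Nr3c1 (-0.87 ± 0.15). Nr0b1 changed by -0.57 ± 0.18 and missed a ratio of 2. Without the 24.5 dpp testis that stood apart the same 5 were called, with log2 changes from -1.04 for Nr3c1 to -2.79 for Nr4a1. The call of Nr3c1 was lost without 14.5 dpp replicate 1 (-0.80), 24.5 dpp replicate 1 (-0.79) or 24.5 dpp replicate 2 (-0.77), and with each library centred on its median gene (-0.81), an alternative added after seeing the data. With that centring and without the testis that stood apart, the same 5 were called (Nr3c1 at -0.95).

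From 24.5 to 30.5 dpp 5 of 6 were again called lower (24.5% of all genes), now with Nr0b1 (-1.10 ± 0.16) in place of Nr4a1. Gata4 was at -1.36, Gata6 at -1.35, Nr5a1 at -1.30 and Nr3c1 at -1.21 on the log2 scale. Nr4a1 was at 0.77 ± 0.22 and missed the ratio of 2, which it passed without 24.5 dpp replicate 3 (0.89), 30.5 dpp replicate 2 (0.91) or 30.5 dpp replicate 3 (0.91). Without the 24.5 dpp testis that stood apart all 6 were thus called, the other 5 with log2 changes from -1.04 (Nr3c1) to -1.24 (Nr5a1). With quantile normalisation the call of Nr3c1 was lost (-0.90) and Nr4a1 was called higher (0.86). The median gene moved by -0.32 in this step and by -0.13 in the one before. With the libraries centred on their median gene, Gata6 stayed called lower, Nr5a1 (-0.84), Gata4 (-0.90), Nr0b1 (-0.64) and Nr3c1 (-0.75) were no longer called, and Nr4a1 was called higher by 1.23. Without the testis that stood apart, Nr4a1 (1.32) was the 1 call left on the centred scale and Gata6 (-0.76) was no longer called. None of the 6 was called in the steps to 14.5, 36.5 and 53.5 dpp, where 14.7%, 7.49% and 6.54% of all genes were called in either direction. Some changes there had an adjusted p of at most 0.05 (limma) but missed the ratio of 2. To 14.5 dpp this was Gata4 (-0.65). To 36.5 dpp these were Nr3c1 (-0.67), Gata4 (-0.44) and Gata6 (-0.38), and to 53.5 dpp Nr3c1 (-0.68), Gata4 (-0.54) and Nr5a1 (-0.46).

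Scaled to Sertoli markers the in vivo picture was another one. The mean log2 level of 5 Sertoli markers (Sox9, Wt1, Fshr, Cldn11 and Dhh) was 6.36 at 14.5 dpp, 4.90 at 24.5 dpp, 3.50 at 30.5 dpp and 2.78 at 53.5 dpp, so it fell as the factors fell. Relative to these markers the step from 24.5 to 30.5 dpp was 0.10 for Nr5a1, 0.04 for Gata4, 0.05 for Gata6, 0.30 for Nr0b1 and 0.19 for Nr3c1, with no call. Nr4a1 was called higher by 2.17 on this scale. Of the step from 14.5 to 24.5 dpp, Nr4a1 was called lower by this scale (-1.20), Nr0b1 was called higher (0.89), and Nr5a1 (-0.15), Gata4 (-0.24), Gata6 (0.10) and Nr3c1 (0.60) were not called. Without the testis that stood apart the calls on this scale were those of the same factors, Nr4a1 (-1.12) and Nr0b1 (1.22) in the first step and Nr4a1 (2.09) in the second, and the other factors of the second step lay between -0.035 and 0.16.

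On the FPKM scale 4 of the 6 factors stayed within a ratio of 2 of the tissue the explants came from. Against 8.5 dpp, Nr0b1 was called higher at D6, at D16 and at D28 and Nr4a1 was called lower at D28, and no other factor was called at any time. On a scale relative to 5 Sertoli markers the calls were others: D6 had 2 factors called, D16 had 3, D22 had 4 and D28 had 5, all of them lower and none of them Nr0b1. On the FPKM scale the share of all genes called in either direction was 16.1% for D6, 22.1% for D16, 23.5% for D22 and 24.0% for D28. These shares do not apply to the counts on the Sertoli scale. That scale also raised the number of all genes called at D16 from 2550 to 5765, of 11539 tested. The 3 of 6 factors called there are thus near the share of all genes. For D6, D22 and D28 that share is not given, so those counts have no background here. Sertoli markers summed to 1234 to 1464 FPKM at 8.5 dpp and 1847 to 5487 FPKM in the explants. Among them Clu had 17.9-fold its mean FPKM at 8.5 dpp by D28, but Clu is not one of the 5 markers of the Sertoli scale. Of those 5, Cldn11 had 7.75-fold its mean FPKM at 8.5 dpp by D28, and each of the others at most 1.68-fold (Fshr). The rise of the scale from 8.5 dpp to D28 was thus uneven between its markers, and the calls on it without Cldn11 were not tested. Leydig markers summed to 230 to 330 FPKM at 8.5 dpp and 12.7 to 36.8 FPKM in the explants, and the part of these shifts in the levels below was not tested.

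Nr5a1 had 101, 102 and 115 FPKM at D6, 91.6, 95.6 and 103 FPKM at D16, 86.1, 89.8 and 99.2 FPKM at D22 and 108, 81.2 and 89.6 FPKM at D28. These 12 values span those of the 8.5 dpp testes, and the D28 difference of -0.12 had a 95% interval from -0.34 to 0.10 on the log2 scale. Gata6 also overlapped its start in part, with 32.2 to 38.6 FPKM at D6, 47.1 to 53.8 FPKM at D16, 39.3 to 49.2 FPKM at D22 and 35.9 to 49.6 FPKM at D28. Its D28 difference was 0.04, with an interval from -0.22 to 0.29.

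Gata4 was lower in all 12 explant libraries (171 to 212 FPKM) than in the 3 starting testes (258 to 262 FPKM). Its differences from 8.5 dpp were -0.53 at D6, then -0.41 at D16, -0.47 at D22 and finally -0.51 at D28 (SE 0.07 each, adjusted p from 6.23e-05 to 0.000396, limma), and none reached a ratio of 2. Nr3c1 had 18.9 to 23.5 FPKM at D6, 25.2 to 29.9 FPKM at D16, 21.4 to 25.1 FPKM at D22 and 17.5 to 23.3 FPKM at D28. At D28 it was below 8.5 dpp by -0.32 ± 0.12 (adjusted p = 0.0305, limma), which is under the ratio of 2.

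Nr0b1, the repressor of Nr5a1, was the factor that rose. It had 115, 102 and 119 FPKM at D6, 126, 130 and 115 FPKM at D16, 109, 106 and 130 FPKM at D22 and 131, 109 and 115 FPKM at D28. Every one of the 12 explant libraries lay above every one of the 17 in vivo libraries, whose highest value was 68.2 FPKM. Against 8.5 dpp the log2 differences were 0.93 at D6, then 1.07 at D16, 0.97 at D22 and finally 1.005 at D28 (SE 0.10 each, adjusted p from 1.46e-06 to 8.57e-06, limma), which is 1.92-fold, 2.12-fold, 1.98-fold and 2.03-fold in mean FPKM. The values lie at the threshold of a ratio of 2, so single libraries set the calls. The D6 call was lost without 8.5 dpp replicate 1 (0.90), 8.5 dpp replicate 3 (0.91), D6 replicate 1 (0.91) or D6 replicate 3 (0.88). The D28 call was lost without 8.5 dpp replicate 1 (0.98), 8.5 dpp replicate 3 (0.98) or D28 replicate 1 (0.93), and D22 passed without D22 replicate 1 (1.005) or D22 replicate 2 (1.02). The D16 call held without any 1 library. Relative to the 5 Sertoli markers, whose mean log2 level was 5.46 at 8.5 dpp and 6.15 to 6.504 in the explants, Nr0b1 was not called at any time (0.24 at D6, then 0.06 at D16, -0.07 at D22 and finally -0.04 at D28). On that scale the other 5 factors were called lower at D28: Nr4a1 (-2.04), Gata4 (-1.55), Nr3c1 (-1.36), Nr5a1 (-1.16) and Gata6 (-1.005). Centred on the median gene, the D6 call was lost (0.86) and those of D16 and D28 were kept.

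The study set D16, D22 and D28 against 14.5 dpp and left D6 out because of its cell composition. The 3 comparisons share the 14.5 dpp testes. In them 1 factor was called at D16 (11.9% of all genes, 6.56% higher and 5.35% lower), 0 at D22 (12.9%, 7.34% and 5.51%) and 0 at D28 (13.6%, 7.63% and 6.00%). At an unadjusted p under 0.05 of the single contrasts (limma), with no rule on the ratio, 3, 2 and 3 factors passed. The share of all genes passing that looser rule was not taken, so these counts have no background here. The F test over the 3 times had an adjusted p of 0.00179 for Nr0b1, 0.015 for Nr3c1, 0.0879 for Nr4a1, 0.253 for Nr5a1, 0.375 for Gata6 and 0.551 for Gata4 (limma).

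Nr0b1 was higher than at 14.5 dpp by 1.02 ± 0.14 at D16, which was called, and by 0.92 at D22 and 0.95 at D28, which missed the ratio of 2. The D16 call was lost without 14.5 dpp replicate 1 (0.85) or D16 replicate 2 (0.98), and relative to the 5 Sertoli markers (0.91). Without 14.5 dpp replicate 2 the D22 (1.09) and D28 (1.13) differences were called, and the D28 difference also without D28 replicate 2 (1.01). Nr3c1 stood at -0.23, -0.44 and -0.69 on the log2 scale at the 3 times in turn, with no ratio of 2. Nr4a1 was at -1.10, -0.63 and -1.54. Its F test failed, and without D22 replicate 2 it was called lower at D16 (-1.10) and D28 (-1.54). Nr5a1 lay between 0.27 and 0.34, Gata4 between 0.14 and 0.24 and Gata6 between 0.04 and 0.28, with 95% intervals that all stay between -0.29 and 0.66.

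**Figure D2:**
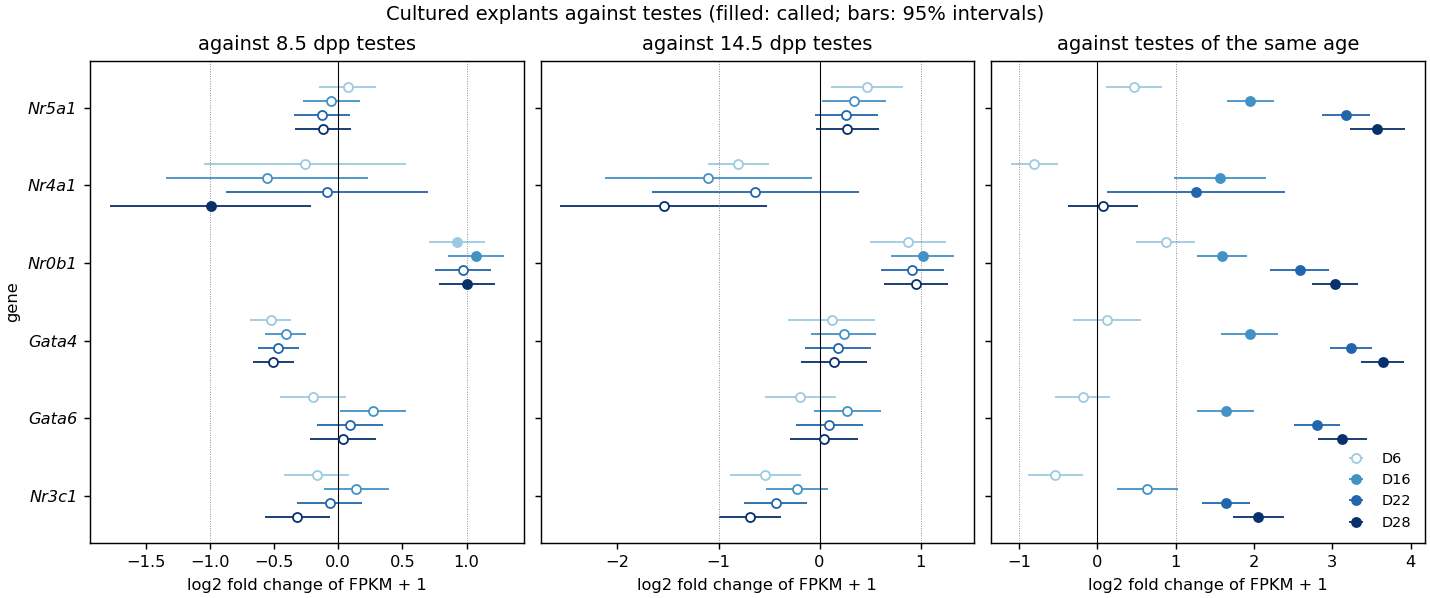
Log2 fold change of FPKM + 1 of each factor in explants against 8.5 dpp testes, 14.5 dpp testes and testes of the same age, with 95% intervals; filled points were called and dotted lines mark a log2 change of 1 either way. Nr0b1 sits near 1 at every culture time in the first 2 panels, and in the third the gaps widen from D6 to D28 for all factors but Nr4a1.

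From D16 on most of the factors were higher in the explants than in testes of the same age. Nr4a1 was the exception in its course, with log2 differences of 1.57 at D16, then 1.26 at D22 and 0.07 at D28. At D6, 0 of 6 were called against 14.5 dpp (7.94% of all genes in either direction). At an unadjusted p under 0.05 (limma), for which no share of all genes was taken, 4 factors passed. They were Nr0b1 (0.87 ± 0.15), Nr5a1 (0.47 ± 0.15), Nr4a1 (-0.80 ± 0.12) and Nr3c1 (-0.54 ± 0.14). Without 14.5 dpp replicate 2 Nr0b1 (1.05) and Nr4a1 (-0.91) were called. At D16, 5 of 6 were called higher than at 24.5 dpp (25.3% of all genes), at D22, 6 of 6 higher than at 30.5 dpp (42.1%), and at D28, 5 of 6 higher than at 36.5 dpp (46.7%). The median gene stood at 0.12, 0.51 and 0.64 in these 3 comparisons.

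At D28 the mean FPKM of Nr5a1 was 13.5-fold, of Gata4 13.3-fold, of Gata6 10.8-fold, of Nr0b1 8.70-fold and of Nr3c1 5.00-fold that at 36.5 dpp. On the log2 scale Gata4 was higher by 3.64 ± 0.12 (adjusted p = 1.39e-07, limma) and Nr5a1 by 3.58 ± 0.15 (4.79e-07). Nr4a1 was at 0.07, with an interval from -0.38 to 0.52. At D22 Nr4a1 was higher by 1.26 ± 0.48 (adjusted p = 0.0409, limma). This call was lost without 30.5 dpp replicate 2 (1.12), 30.5 dpp replicate 3 (1.12), D22 replicate 1 (1.09) or D22 replicate 3 (0.89). At D16 Nr3c1 missed the ratio of 2 (0.64 ± 0.16), and the 5 calls stayed without the 24.5 dpp testis that stood apart, with values from 1.46 for Nr0b1 to 2.10 for Gata4. Relative to the 5 Sertoli markers Nr3c1 was at -0.93 at D16 (adjusted p = 0.000665, limma), or -0.96 without that testis, again under the ratio of 2.

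Germ cell markers were lower in the explants than in testes of the same age from D16 on. Their sum was 821 to 954 FPKM at 24.5 dpp and 99.9 to 124 FPKM at D16. At 30.5 dpp it was 628 to 1092 FPKM and at D22 82.5 to 130 FPKM. The sum was 2955 to 4353 FPKM at 36.5 dpp and 53.2 to 120 FPKM at D28, with Prm1 listed at 0 in all explants. The part of germ cells in the gaps of the factors was not tested. Relative to the 5 Sertoli markers, 0 of 6 factors were called higher at D16 or D22, and at D16 also without the testis that stood apart. On that scale Nr3c1 was called lower at D22 (-1.36) and D28 (-1.30), and Nr4a1 at D28 (-3.29). Nr5a1 (0.22), Gata4 (0.29), Gata6 (-0.23) and Nr0b1 (-0.32) were not called at D28. The Sertoli markers themselves stood at a mean log2 level of 6.504 at D28 and 3.15 at 36.5 dpp.

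The change over 22 days was also tested as such, from D6 to D28 in culture against 14.5 to 36.5 dpp in vivo. In culture the factors moved by -0.19 (Nr5a1), -0.74 (Nr4a1), 0.08 (Nr0b1), 0.02 (Gata4), 0.23 (Gata6) and -0.15 (Nr3c1). In vivo they moved by -3.30, -1.61, -2.08, -3.50, -3.09 and -2.74 in the same order. The difference was called for 5 of 6, all in the direction of culture higher (38.4% of all genes). It was 3.52 ± 0.21 for Gata4, 3.32 ± 0.19 for Gata6, 3.11 ± 0.21 for Nr5a1, 2.59 ± 0.20 for Nr3c1 and 2.16 ± 0.19 for Nr0b1. For Nr4a1 it was 0.87 ± 0.25 and under the threshold of 1, which it passed without 36.5 dpp replicate 1 (1.05). Relative to the 5 Sertoli markers Nr5a1 (-0.46), Gata4 (-0.05), Gata6 (-0.25) and Nr3c1 (-0.98) were not called, and Nr0b1 (-1.41) and Nr4a1 (-2.70) were called in the direction of culture lower. Over D6 to D28 alone 0 of 6 were called by the F test (6.71% of all genes), with 2 factors, Gata6 and Nr3c1, at an unadjusted p under 0.05. The share of all genes under that unadjusted p was not taken.

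Ratios between factors of the same library do not depend on how that library was scaled. The ratio of Nr0b1 to Nr5a1 was 0.581 ± 0.018 (SD) at 8.5 dpp, 1.99 ± 0.13 at 30.5 dpp and 2.38 ± 0.43 at 53.5 dpp (n = 3 each), so the repressor came to exceed its partner in vivo. In the explants it was 1.06 ± 0.07 at D6, then 1.29 ± 0.15 at D16, 1.26 ± 0.07 at D22 and finally 1.28 ± 0.06 at D28, above all 8.5 dpp testes and below all testes of 30.5 dpp and older. At 14.5 dpp the testes had 0.629 and 1.0037, below the 1.0039 to 1.136 of D6. At 24.5 dpp the testis that stood apart had 1.27, inside the 1.12 to 1.38 of D16, and the others had 1.75 and 2.08. The ratio of Nr5a1 to Gata4 went from 0.384 ± 0.010 at 8.5 dpp to 0.512 ± 0.061 at 53.5 dpp. In the 12 explants it lay between 0.452 and 0.608, above all testes of 8.5 dpp (at most 0.395). At D6 it was 0.570 to 0.608, above both testes of 14.5 dpp (0.424 and 0.492).

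Gata6 gained on Gata4 in vivo, from a ratio of 0.159 ± 0.004 at 8.5 dpp to 0.308 ± 0.031 at 24.5 dpp, where the testis that stood apart (0.313) lay between the other 2 (0.275 and 0.337). In the explants it was 0.201 ± 0.026 at D6 and 0.256 ± 0.002 at D16. The ratio of Nr3c1 to Gata4 separated culture from testis: it was 0.0938 ± 0.0008 at 8.5 dpp, rose in vivo to 0.358 ± 0.028 at 30.5 dpp, and stayed from 0.0924 to 0.155 in the explants. All explant ratios of Nr3c1 to Gata4 were below all in vivo ratios after 8.5 dpp.

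**Figure D3:**
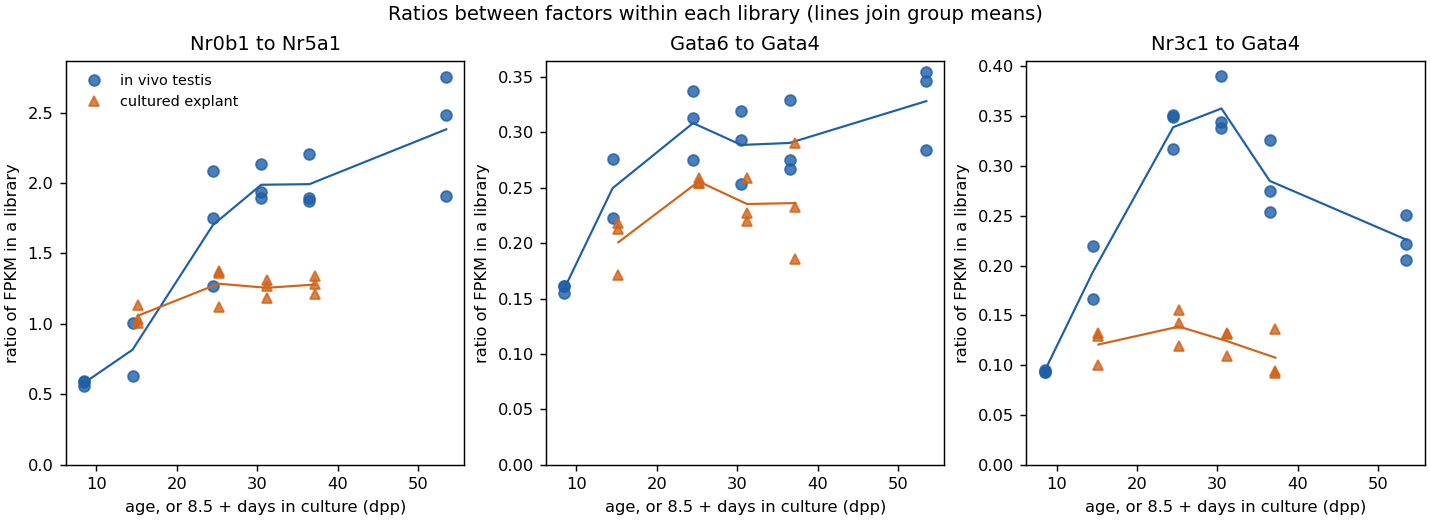
Ratio of FPKM between 2 factors in each library, against age (blue circles) or 8.5 plus days in culture (orange triangles, shifted right by 0.7 days), with lines through group means and axes from 0. Nr0b1 to Nr5a1 and Nr3c1 to Gata4 climb in vivo by 30.5 dpp, to means of 1.99 and 0.358, and all explants lie below these means. For Nr0b1 to Nr5a1 the D6 explants lie above the testes of the same age (14.5 dpp).

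Nr4a1 was the factor with the widest spread in culture. It had 7.04, 6.95 and 7.20 FPKM at D6, 8.21, 5.46 and 3.75 FPKM at D16, 10.5, 3.30 and 14.1 FPKM at D22 and 4.76, 3.59 and 3.28 FPKM at D28. Its pooled SD over the culture times was 0.545 on the log2 scale, larger than that of 97.1% of 12762 genes, where those of the other 5 factors ran from 0.0800 (Gata4) to 0.162 (Gata6). In vivo its SD of 0.289 exceeded that of 83.7% of the genes. At D28 it was below 8.5 dpp (-0.995 ± 0.36 SE on the log2 scale, adjusted p = 0.0305, limma), a call that was lost without 8.5 dpp replicate 1 (-0.94), 8.5 dpp replicate 2 (-0.93), D28 replicate 2 (-0.96) or D28 replicate 3 (-0.91).

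D22 replicate 2, the low library for Nr4a1, was low for other genes that cyclic AMP and stress switch on within minutes. Of the 8 listed immediate early genes, 7 were lowest in it, where 33% of all detected genes were. Egr1 had 12.9 FPKM there against 39.1 and 51.3 FPKM in the other D22 libraries. Fos, a subunit of AP-1, had 12.3 FPKM against 28.3 and 28.6 FPKM. This library was picked after its values were seen.

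Unlike Nr4a1, several of these genes were higher in the explants than at 14.5 dpp. Fos, Fosb and Junb were called higher at D16 and D22, and Junb also at D28 (1.81). Fos had 0.78 to 0.835 FPKM at 8.5 dpp, 2.66 and 1.97 FPKM at 14.5 dpp and 4.34 to 28.6 FPKM in the explants. Junb, another AP-1 subunit, had 7.40 to 12.2 FPKM in the young testes and 29.5 to 83.0 FPKM in culture. Nr4a2 and Nr4a3, the paralogs of Nr4a1, were not called at any of the 3 times.

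**Figure D4:**
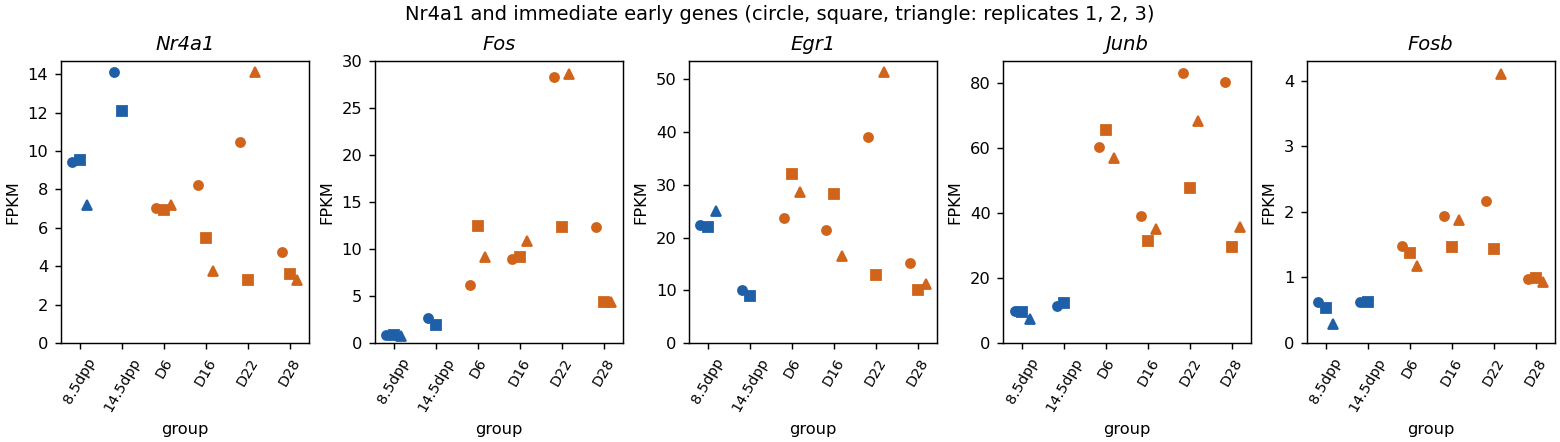
FPKM of Nr4a1 and of 4 immediate early genes in each library of the young testes (blue) and the explants (orange), with replicates 1, 2 and 3 as circle, square and triangle and axes from 0. The D22 square is the lowest D22 point in all 5 panels, and Fos and Junb lie higher in all explants than in the testes shown.

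Of the genes these factors are known to act on, a part of the steroidogenic list was lower in the explants. Of 10 steroidogenic genes, 5 were called lower and 0 higher than at 14.5 dpp, at D16, at D22 and also at D28, with a list median of -1.02 at D28 beside -0.08 for all genes, of which 6.00% were called lower and 7.63% higher. Of the 10, 6 are also the Leydig markers. Cyp17a1, which makes androgens from progestins, had 42.2 and 125 FPKM at 14.5 dpp and 0.308 to 0.602 FPKM at D28 (-5.65). Insl3, the peptide hormone of Leydig cells, had 27.3 and 40.0 FPKM against 1.27 to 2.36 FPKM (-3.63). Cyp11a1, the enzyme that cleaves the side chain of cholesterol, had 7.83 and 22.5 FPKM against 0.949 to 2.26 FPKM (-2.50).

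Hsd3b1 was at -1.91 and Star, which brings cholesterol into mitochondria, at -1.35 on the log2 scale at D28. The other 5 were not called. Among them Scarb1, the HDL receptor, had 24.4 and 31.3 FPKM at 14.5 dpp and 31.5 to 36.5 FPKM at D28, and Lhcgr, the receptor of luteinizing hormone, 2.78 and 5.99 FPKM against 2.00 to 2.48 FPKM. The ratio of Cyp17a1 to Nr5a1 within a library was 0.498 to 1.83 at 14.5 dpp, 11.5 to 18.1 at 30.5 dpp and at most 0.00974 in the explants. In the 24.5 dpp testis that stood apart it was 0.846, against 7.75 and 6.30 in the other 2, while its Nr5a1 of 26.4 FPKM was like theirs.

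Of 8 Sertoli genes that Nr5a1 or Gata4 are known to drive or to work beside, 1 was called higher at D28 and 0 lower, with a median of -0.33, where 7.63% of all genes were called higher and 6.00% lower. The 1 call was Clu, a secreted chaperone of Sertoli cells, at 423 and 998 FPKM at 14.5 dpp and 2618 to 3391 FPKM at D28 (2.20). Amh was called lower at D16 (-1.05) and had -0.82 at D28. Its FPKM was 52.8 and 85.3 at 14.5 dpp and 28.5 to 43.8 at D28. Some markers of other cells were called, against the same shares of all genes: 4 of 4 peritubular markers were called lower at all 3 times (Cnn1, a smooth muscle protein, by -2.45 at D28), and the endothelial markers Pecam1 and Tie1 were called higher at all 3. At D28, 2 of 4 macrophage markers (Adgre1 and Cd68), 1 of 4 stromal markers (Dcn) and 1 of 9 Sertoli markers (Clu) were called higher, and 1 of 5 germ cell markers (Ddx4) and 1 of 4 endothelial markers (Emcn) lower. The part of these cells in the levels of the factors was not tested.

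**Figure D5:**
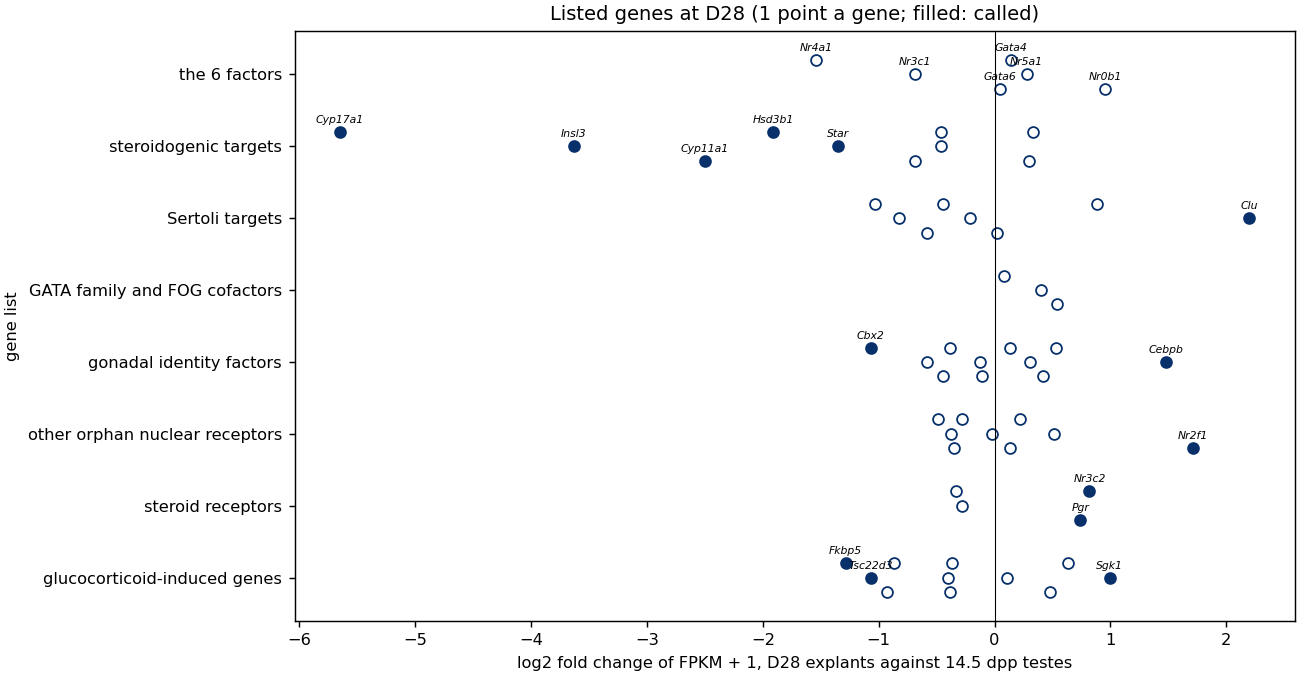
Log2 fold change of FPKM + 1 at D28 against 14.5 dpp for each tested gene of 8 lists, 1 point a gene; filled points were called, and these and the 6 factors are named. None of the 6 factors is filled, while 5 steroidogenic genes lie to the left, from -1.35 for Star to -5.65 for Cyp17a1.

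Genes induced by the glucocorticoid receptor did not move as 1 group. Of 11 tested at D28, 1 was called higher and 2 lower, with a median of -0.38 (7.63% and 6.00% of all genes). Fkbp5, a co-chaperone that the receptor induces and that restrains it, had 57.6 FPKM in both 14.5 dpp testes, 34.7 to 40.8 FPKM at D6 and 21.6 to 24.3 FPKM at D28 (-1.29), and was called lower at D16, D22 and D28. Tsc22d3 (GILZ) had 61.9 and 74.96 FPKM at 14.5 dpp and 31.8 to 32.1 FPKM at D28 (-1.07). Sgk1, a kinase that salt, stress and serum also induce, went the other way, with 15.1 and 12.7 FPKM at 14.5 dpp and 22.6 to 36.8 FPKM at D28 (0.99).

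Of the 7 chaperones and enzymes that act on the receptor or its ligand, Hsd11b1 was the 1 called, and it was higher at all 3 times. This enzyme regenerates active glucocorticoid. Its FPKM was 1.25 and 1.46 at 14.5 dpp and 12.5 to 28.6 at D28 (3.01 on the log2 scale). Hsp90aa1 is listed at 0 in every library and was not tested. Of the steroid receptors related to Nr3c1, Nr3c2 (the mineralocorticoid receptor) was called higher at D28, with 1.60 and 2.21 FPKM at 14.5 dpp and 3.96 to 4.33 FPKM at D28. Pgr, the progesterone receptor, was called higher at all 3 times. It is listed at 0 in 16 of the 17 testes and had 0.455 to 1.43 FPKM in the explants.

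Some relatives and partners of the factors were called against 14.5 dpp. Of all genes, 11.9% were called in either direction at D16, 12.9% at D22 and 13.6% at D28. Among the GATA family and its cofactors 3 of 6 genes passed the filter on low values and 0 were called against 14.5 dpp. By the single contrasts at D28, Zfpm1 differed by 0.54 and Zfpm2 by 0.40, under the ratio of 2. Zfpm1 had 50.9 to 55.6 FPKM at 8.5 dpp, 20.5 and 17.3 FPKM at 14.5 dpp and 21.5 to 31.1 FPKM in the explants. Among 9 other orphan nuclear receptors tested, Nr2f1 (COUP-TFI) was called higher at all 3 times. It had 0.478 and 0.614 FPKM at 14.5 dpp, was at most 0.0717 FPKM in the testes from 24.5 dpp on and had 2.63 to 5.46 FPKM in the explants. Nr5a2, the paralog of Nr5a1, was called lower at D16 (-0.70) and D22 (-0.64). It had 2.43 and 2.78 FPKM at 14.5 dpp but 0.224 to 0.534 FPKM at 8.5 dpp, and 1.004 to 1.82 FPKM in the explants. Of 11 gonadal identity factors tested at D28, Cebpb was called higher (1.48) and Cbx2, a Polycomb protein of testis determination, lower (-1.07).

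Per length, Gata4 was the most abundant of the 6 in each group except 53.5 dpp, where Nr0b1 came first. In the explants the order of the means was Gata4, Nr0b1, Nr5a1, Gata6, Nr3c1 and Nr4a1 at all 4 times, with Nr0b1 and Nr5a1 in the other order at 8.5 and 14.5 dpp. Gata4 at D28 lay above 98.4% of the detected genes, Nr0b1 above 97%, Nr5a1 above 95.6%, Gata6 above 87.6%, Nr3c1 above 71.8% and Nr4a1 above 38.5%. Ordered by group, Nr5a1 ran from D6 (mean 106 FPKM) through 8.5 dpp, D16, D28 and D22, neighbours whose ranges overlap, down to 14.5 dpp (76.4 FPKM), which overlapped neither neighbour. The range of 14.5 dpp, up to 84.8 FPKM, did overlap that of D28, which began at 81.2 FPKM. Gata6 had 6 groups in an overlapping row, from D16 (50.3 FPKM) to D6 (36.2 FPKM), and Nr4a1 9 of 10, from 14.5 dpp (13.1 FPKM) to 30.5 dpp (2.93 FPKM).

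The genes most like each factor were ranked by Pearson's r of log2(FPKM + 1) over the 29 libraries among 12761 others. These points share ages, culture and library makeup, so r describes the common course only. Nr5a1 was followed by Mmp14 (r = 0.998), Slc25a4 (0.997) and Tbc1d2b (0.996), Gata4 by Extl3 (0.998), Ndn (0.997) and Smim30l1 (0.997), and Gata6 by Tns3 (0.997), Fbxl4 (0.996) and Sh2d4a (0.995). Nr0b1 was followed by Itpkb (0.993), Tfe3 (0.991) and Nectin2 (0.991), which were also higher at D28 than at 8.5 dpp. Itpkb had means of 21.5 FPKM at 8.5 dpp and 43.9 FPKM at D28, and Nectin2 65.0 and 158 FPKM. Nr3c1 was followed by Mettl14 (0.995), Vezf1 (0.995) and Rnf20 (0.993). For Nr4a1 no gene exceeded 0.806, the value of Pln (phospholamban). Mmp14, the gene nearest to Nr5a1, had means of 143 FPKM at 8.5 dpp, 145 FPKM at D28 and 4.80 FPKM at 53.5 dpp.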

How the data were processed

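RNA of 29 testis and explant libraries was sequenced from TruSeq Stranded mRNA libraries as 50 bp single reads. The authors deposited 1 table of FPKM values, made with STAR 2.5.2a on rn6 and StringTie 1.3.3, with gene symbols matched here by Entrez identifier to RefSeq (17172 of 17322 genes). No counts were used, so depth is unknown and a precision from counting cannot be given.

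Genes whose median reached 0.5 FPKM in a compared group were fitted as log2(FPKM + 1) with limma 3.58.1 in R 4.3.3, on the groups of each comparison only, and tested on simulated data first. Fold changes on this scale understate the change of low genes. A call needed an adjusted p of at most 0.05 and a ratio of medians of at least 2. Against 14.5 dpp the p was that of the F test over 3 culture times, and for the difference of 2 changes a log2 value of at least 1 replaced the ratio. Confidence intervals are 95%. Explants pool animals, so p-values measure the spread between pools.

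The 6 factors and 16 gene lists were chosen with earlier results of these data known. Named genes are the factors, up to 4 genes of each list (those called with the largest change at D28 against 14.5 dpp or, with fewer than 2 called, those with the largest change), 8 known targets fixed by name, and the 3 genes most like each factor. Genes named outside this rule were chosen after their values were seen. The alternatives were pseudocounts of 0.1 and 0.5, no filter, quantile normalisation, scaling to Sertoli markers, a trended prior, 1 fit of all 10 groups, a replicate block and leaving out each library. Centring on the median gene and a scaling to 5 Sertoli markers, each also without 24.5 dpp replicate 3, were added after seeing the data. Figures used matplotlib 3.10.9.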

Additional observations from a re-analysis of the deposited data

Results flagged for a closer look

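The change over 22 days differed between culture (D6 to D28) and testis (14.5 to 36.5 dpp) for 5 factors by a test of the difference itself. The differences on the log2 scale, culture minus in vivo, were 3.52 for Gata4, 3.32 for Gata6, 3.11 for Nr5a1, 2.59 for Nr3c1 and 2.16 for Nr0b1. No formal outlier test was run, since it needs larger groups than the 2 or 3 libraries here.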

How the results depend on the processing

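Of the values of single factors under other settings, 2516 kept their direction and side of the threshold, 48 gained a call and 86 lost one with the same direction, and 104 changed sign, called or not. Of these 104, 76 were under scaling to Sertoli markers, 19 with 1 library left out and 9 under other settings. The cause was not tested. The labels do not say whether the same replicate numbers mark paired samples. The deviations of same-numbered explants and testes correlated at -0.126 to 0.129 over 29 pairs, 3 of them over 0.1, and those of same-numbered libraries of 2 culture times at -0.131 to 0.218 over 18 pairs, 5 of them over 0.1, so pairing was not assumed. With the replicate block the number of factors called was the same in all 20 counts, and all genes called at D6 against 14.5 dpp fell from 898 to 376.

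The number of factors called changed as follows, with scaling to 6 and to 5 Sertoli markers given in that order. Shares of all genes called on these scales are not given beside the counts, so the counts are not read against a background. Against 14.5 dpp, D16 had 0 and 0, 0 with quantile normalisation and 2 with all 10 groups in 1 fit, and D28 had 1 with all 10 groups and 1 with median centring. Against the same age, D16 had 0 and 0, D22 0 and 1, and D28 1 and 2. Against 8.5 dpp, D6 had 2 with 5 markers and 0 with median centring, D16 3 and 3, D22 2 and 4, and D28 4 and 5. In vivo, 14.5 against 8.5 dpp had 2 and 2, 24.5 against 14.5 dpp 1 and 2, and 30.5 against 24.5 dpp 1 and 1, with 2 by median centring. Without 24.5 dpp replicate 3, scaling to 5 markers gave 0 for D16 against 24.5 dpp, 2 for 24.5 against 14.5 dpp and 1 for 30.5 against 24.5 dpp, and median centring 1 for the last. D28 against D6 had 1 with 5 markers, and the difference of the 22-day changes 1 and 2.

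Leaving out 1 library at a time gave 0 to 2 factors called for D16 and for D6 against 14.5 dpp, 0 to 1 for D22 and D28 against 14.5 dpp, 5 to 6 for D22 against 30.5 dpp, 0 to 1 for D6 and D22 and 0 to 2 for D28 against 8.5 dpp, 4 to 5 for 24.5 against 14.5 dpp, 5 to 6 for 30.5 against 24.5 dpp and for the 22-day changes, and 0 to 1 for the culture course.

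Scaled to 6 Sertoli markers, the sign changed for D22 against 14.5 dpp (Gata6 -0.018), D28 against 14.5 dpp (Gata6 -0.075), D16 against 24.5 dpp (Nr3c1 -0.67), D22 against 30.5 dpp (Nr4a1 -1.24, Nr3c1 -0.86), D28 against 36.5 dpp (Nr4a1 -2.73, Nr3c1 -0.74), D6 against 8.5 dpp (Nr5a1 -0.50), D16 against 8.5 dpp (Gata6 -0.57, Nr3c1 -0.70), D22 against 8.5 dpp (Gata6 -0.77), D28 against 8.5 dpp (Gata6 -0.83), 14.5 dpp against 8.5 dpp (Nr4a1 -0.20, Nr0b1 -0.70, Nr3c1 -0.38), 24.5 dpp against 14.5 dpp (Nr0b1 0.65, Nr3c1 0.35), 30.5 dpp against 24.5 dpp (Nr0b1 0.069), 53.5 dpp against 36.5 dpp (Nr0b1 0.029), D28 against D6 (Nr0b1 -0.22, Gata4 -0.28, Gata6 -0.065), the 22-day changes (Nr4a1 -2.10, Nr0b1 -0.82, Nr3c1 -0.38). Scaled to 5, it changed for D22 against 14.5 dpp (Gata6 -0.041), D28 against 14.5 dpp (Gata4 -0.0026, Gata6 -0.098), D6 against 14.5 dpp (Gata6 0.026), D16 against 24.5 dpp (Nr4a1 -0.0067, Nr3c1 -0.93), D22 against 30.5 dpp (Nr4a1 -1.74, Nr0b1 -0.42, Gata6 -0.19, Nr3c1 -1.36), D28 against 36.5 dpp (Nr4a1 -3.29, Nr0b1 -0.32, Gata6 -0.23, Nr3c1 -1.30), D6 against 8.5 dpp (Nr5a1 -0.61), D16 against 8.5 dpp (Gata6 -0.74, Nr3c1 -0.87), D22 against 8.5 dpp (Nr0b1 -0.069, Gata6 -0.95), D28 against 8.5 dpp (Nr0b1 -0.038, Gata6 -1.005), 14.5 dpp against 8.5 dpp (Nr4a1 -0.35, Nr0b1 -0.85, Nr3c1 -0.53), 24.5 dpp against 14.5 dpp (Nr0b1 0.89, Gata6 0.10, Nr3c1 0.60), 30.5 dpp against 24.5 dpp (Nr5a1 0.10, Nr0b1 0.30, Gata4 0.041, Gata6 0.050, Nr3c1 0.19), 53.5 dpp against 36.5 dpp (Nr0b1 0.090, Gata6 0.048), D28 against D6 (Nr0b1 -0.28, Gata4 -0.34, Gata6 -0.12), the 22-day changes (Nr5a1 -0.46, Nr4a1 -2.70, Nr0b1 -1.41, Gata4 -0.048, Gata6 -0.25, Nr3c1 -0.98). Scaled to 5 without 24.5 dpp replicate 3, it changed for D16 against 24.5 dpp (Nr4a1 -0.084, Nr0b1 -0.31, Nr3c1 -0.96), 24.5 dpp against 14.5 dpp (Nr0b1 1.22, Gata6 0.14, Nr3c1 0.62), 30.5 dpp against 24.5 dpp (Gata6 0.011, Nr3c1 0.16).

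Quantile normalisation changed the sign for D28 against 36.5 dpp (Nr4a1 -0.42), D16 against 8.5 dpp (Nr5a1 0.014), 53.5 dpp against 36.5 dpp (Nr0b1 0.0084, Gata6 0.010), median centring for D28 against 36.5 dpp (Nr4a1 -0.55), 14.5 dpp against 8.5 dpp (Nr0b1 -0.077), 53.5 dpp against 36.5 dpp (Nr0b1 0.081, Gata6 0.039) and the replicate block for 14.5 dpp against 8.5 dpp (Gata6 0.016). With 1 library left out, values crossed 0 for Gata4 at D16 (-0.027 to 0.50), D22 (-0.086 to 0.44), D28 (-0.12 to 0.41) and D6 (-0.14 to 0.38) against 14.5 dpp, for Gata6 at D22 (-0.012 to 0.21) and D28 (-0.064 to 0.16) against 14.5 dpp and at D28 (-0.069 to 0.16) against 8.5 dpp, for Nr4a1 at D28 against 36.5 dpp (-0.057 to 0.25), D22 against 8.5 dpp (-0.46 to 0.45) and 53.5 against 36.5 dpp (-0.055 to 0.24), for Gata6 (-0.12 to 0.10) and Nr0b1 (-0.12 to 0.23) at 14.5 against 8.5 dpp, and for Gata4 at D28 against D6 (-0.018 to 0.072).

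Nr4a1 at D22 against 30.5 dpp also lost its call with a pseudocount of 0.1 (1.49), no filter (1.26), quantile normalisation (0.96) and median centring (0.85). Of all genes, the calls of D16 against 8.5 dpp went from 2550 to 4693 and 5765 with 6 and 5 Sertoli markers.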
